A study of Mus musculus with 40 samples.

Results

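Adipokines are proteins that adipose tissue releases into the circulation. Histone marks were examined at 7 mouse adipokine genes, out of 21951 protein-coding genes in the annotation: Lep, Adipoq, Retn, Rbp4, Cfd, Apln and Nampt. They were chosen by name, and the peaks of each were those over its gene body and 30 kb on each side, which gave 416 of the 457842 peaks in the series. Chromatin immunoprecipitation with sequencing (ChIP-seq) had been performed on interscapular brown adipose tissue (iBAT), a heat-producing fat depot, of 8 wild type C57BL/6N mice. All mice were 20 weeks old and had received chow until 8 weeks of age. Mice 1 and 2 stayed on the normal chow diet (NCD) and were kept warm, and mice 4 and 5 were on NCD and at 4 °C for 24 h. Mice 7 and 8 received high-fat diet (HFD) for 12 weeks and were kept warm, and mice 10 and 11 received the same HFD and were at 4 °C for 24 h. The labels give no temperature for warm housing. The sample labels name interscapular tissue, whereas the description of the series names inguinal brown adipose tissue. Every mouse had a list of peaks for each of 4 marks, so that diet and temperature were each compared between 4 and 4 mice.

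White and brown adipocytes secrete different sets of hormones. Leptin, the product of Lep, reports fat stores to the hypothalamus and is mainly a product of white adipocytes, whereas adiponectin, encoded by Adipoq, is made by mature adipocytes of both kinds and acts on liver and muscle. Among the 4 marks, trimethylation of histone H3 at lysine 4 (H3K4me3) lies over active or poised promoters, acetylation of lysine 27 (H3K27ac) over active promoters and enhancers, monomethylation of lysine 4 (H3K4me1) over enhancers, and trimethylation of lysine 27 (H3K27me3) over genes silenced by Polycomb proteins.

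The sequence before the start site is shown for 5 members, chosen after their values were seen because their promoters differed most in these lists: Lep, marked on NCD, Adipoq and Nampt, with H3K4me3 in all 8 mice, and Retn and Cfd, with H3K4me3 in none. Each is the 250 bases before the start in RefSeq on GRCm38.p6, read 5′ to 3′ on the strand of the gene. Capitals mark matches on either strand to TTGCNNAA, a C/EBP-type word, or to GGGCGG, a GC box. The other words searched were the TATA box word TATAAA, the E-box word CACGTG, the cAMP response element TGACGTCA and the direct repeat of the nuclear receptor half-site with a spacer of 1 base, and none had a match in these 5 windows. Lep lies at chr6:29059971-29060220 on the plus strand, Adipoq at chr16:23146286-23146535 on the plus strand, Nampt at chr12:32820085-32820334 on the plus strand, Retn at chr8:3655520-3655769 on the plus strand and Cfd at chr10:79890603-79890852 on the plus strand.
Lep: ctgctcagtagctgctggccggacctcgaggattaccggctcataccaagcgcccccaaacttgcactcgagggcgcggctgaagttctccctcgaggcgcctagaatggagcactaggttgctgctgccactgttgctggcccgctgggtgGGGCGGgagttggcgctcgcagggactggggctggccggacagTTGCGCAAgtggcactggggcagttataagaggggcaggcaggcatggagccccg
Adipoq: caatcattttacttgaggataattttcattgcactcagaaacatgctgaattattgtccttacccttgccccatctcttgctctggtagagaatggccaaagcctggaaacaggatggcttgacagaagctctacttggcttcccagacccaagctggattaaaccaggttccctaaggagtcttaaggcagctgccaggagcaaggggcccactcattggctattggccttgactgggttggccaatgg
Nampt: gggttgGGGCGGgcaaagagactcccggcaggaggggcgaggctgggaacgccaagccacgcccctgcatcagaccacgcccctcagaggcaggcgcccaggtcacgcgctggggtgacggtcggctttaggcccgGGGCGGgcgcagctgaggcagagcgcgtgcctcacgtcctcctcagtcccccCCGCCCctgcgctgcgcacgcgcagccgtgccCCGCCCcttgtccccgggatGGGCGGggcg
Retn: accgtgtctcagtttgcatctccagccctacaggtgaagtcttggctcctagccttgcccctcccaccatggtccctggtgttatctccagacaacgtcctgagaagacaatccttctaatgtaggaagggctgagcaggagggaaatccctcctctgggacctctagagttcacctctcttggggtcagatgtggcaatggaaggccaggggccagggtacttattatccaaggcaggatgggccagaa
Cfd: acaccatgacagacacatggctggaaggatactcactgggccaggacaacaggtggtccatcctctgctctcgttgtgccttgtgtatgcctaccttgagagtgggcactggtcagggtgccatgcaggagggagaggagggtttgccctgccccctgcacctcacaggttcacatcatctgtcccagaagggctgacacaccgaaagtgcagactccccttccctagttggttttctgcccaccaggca

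The Lep sequence held TTGCGCAA, whose first base was at -55 relative to the start, and GGGCGG at -98. Over all 32851 RefSeq promoter windows of 300 bases, 10.8% held TTGCNNAA and 35.7% held GGGCGG. Nampt held 5 GC boxes, and Adipoq, Retn and Cfd held none of the words searched. CpG dinucleotides, at which DNA is methylated, also differed. The 300-base window of Nampt held 36, more than 93.8% of all windows, and that of Lep held 19, more than 71.9%. The windows of Retn and Cfd held 2 each, and that of Adipoq held 0. A match is a description of the letters only, and binding was not measured in these libraries.

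The lists differed in length within a mark. H3K4me3 lists held 13517 to 24104 peaks and H3K27ac lists 3224 to 40604, and the lists of mice 7 and 10 were the shortest for both. H3K4me1 lists of mice 7 and 10 held 12 and 18 peaks, that of mouse 1 held 592, and H3K27me3 lists of all mice held 20 to 6428, so absence of these marks was not interpretable in the short lists. The background pileup recovered from the peak statistics was 0.461 and 0.469 in the H3K4me3 lists of mice 7 and 10, and 0.664 to 1.91 in those of the other mice. The H3K27ac lists of mice 7 and 10 had similar values, 0.452 and 0.462, and the pileup was not checked against the depth of any library. Of the H3K4me3 peaks examined, 11.9% in mouse 7 and 11.0% in mouse 8 lay at this background, against 29.5 to 72.4% in the others. The lowest H3K4me3 signal called at this background was 9.15 and 9.09 times background in mice 7 and 10, against 4.19 to 7.57 times in the others. For the main absences of a peak that several other lists held, the share of promoters or regions of like rank in the same list is given. A promoter without a peak in any list has no rank to match. The absences of H3K4me3 and H3K27ac at Retn and Cfd, and of H3K27ac at Apln, were therefore not judged in this way. The tissue carried the markers of brown adipocytes: 9 of 9 marker promoters had H3K4me3 in all 8 mice, as had 3 of 6 endothelial and 0 of 7 macrophage markers.

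A promoter was counted as marked when a peak overlapped 1000 bp on either side of an annotated start site. At promoters, 5 of the 7 members had H3K4me3 in at least 1 mouse, and Adipoq and Nampt had it in all 8. H3K27ac was found at the promoters of Lep, Adipoq, Rbp4 and Nampt. H3K4me1 was found at the promoters of Lep, Adipoq, Retn and Cfd, in at most 3 mice each, and H3K27me3 was called at none. Over all 21951 promoters, 43.3% had H3K4me3 in all 8 mice and 35.2% in none, and 50.4% had no H3K27ac, 77.6% no H3K4me1 and 93.1% no H3K27me3 in any mouse. The values are the authors' fold enrichment of the ChIP signal over the control at the summit, and the percentile of that fold among all 21951 protein-coding promoters of the same library, with promoters without a peak at 0.

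**Figure D1:**
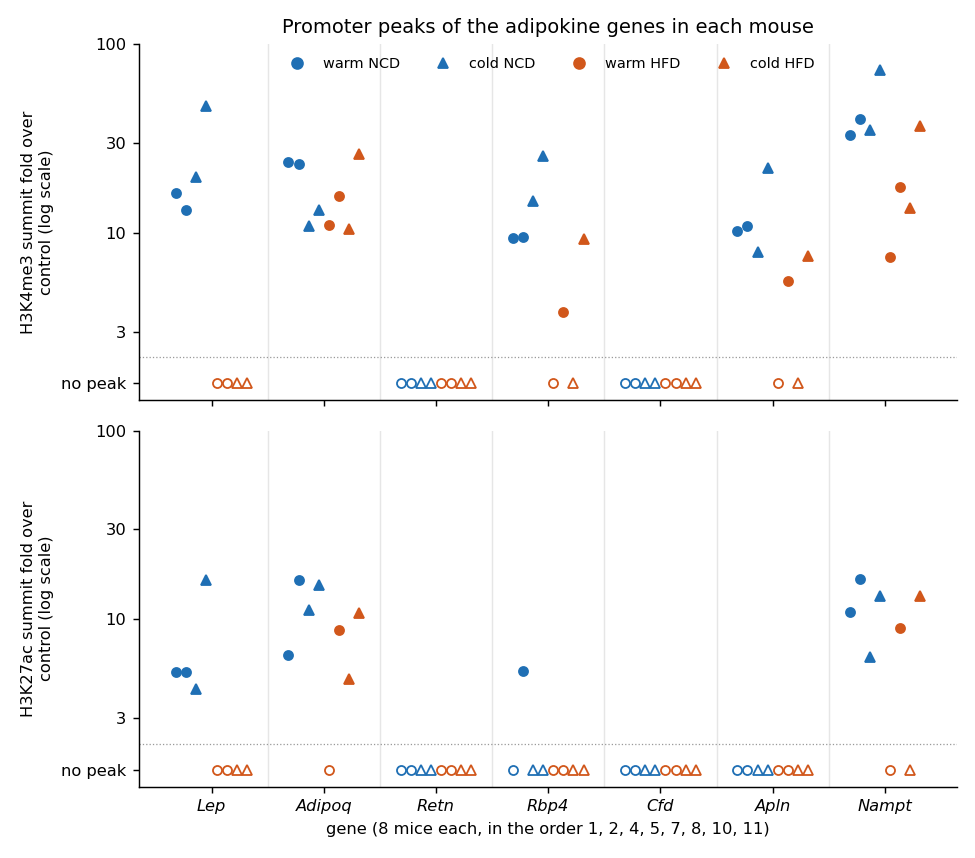
Fold enrichment at the summit of the promoter peak (log axis) for each of the 7 genes and 8 mice, for H3K4me3 above and H3K27ac below. Circles are warm and triangles cold mice, blue NCD and orange HFD, and open symbols under the dotted line are mice without a promoter peak. All 4 HFD mice are without a Lep peak of either mark, and Retn and Cfd have none in any mouse.

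Lep (ENSMUSG00000059201.12) lies on chromosome 6, bases 29060220 to 29073877 on the plus strand, and has 3 exons. H3K4me3 at the Lep promoter had folds of 16.3, 13.2, 19.7 and 46.9 in NCD mice 1, 2, 4 and 5, and no peak was called in mice 7, 8, 10 and 11. Over the first exon and the first intron, the peaks covered 1406 to 3069 bp of the region from 29059843 to 29062939, with the median summit 282 bp after the start. The NCD and HFD mice did not overlap: the percentile was 58.1 ± 9.54 (SD, n = 4) on NCD and 0 in each of the 4 HFD mice. Of the 7 members, 1 was marked in all NCD and in no HFD mice, as were 26 of the 14232 promoters with H3K4me3 in at least 1 mouse, or 0.183%. This count of promoters rose to 258 without mouse 11 and to 60 without mouse 1. In a two-sided exact permutation test p was 0.0286, the smallest that 4 against 4 mice allow, and the p adjusted over all 14232 promoters was 0.823. These p-values take the mouse as the replicate, with all 4 HFD values set to 0 for want of a peak. The median H3K4me3 difference over all promoters tested, HFD minus NCD, was -4.47 percentile points.

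H3K27ac followed the same division at Lep. The fold was 5.26, 5.27, 4.30 and 16.3 in mice 1, 2, 4 and 5, and no peak was called in any of the 4 HFD mice. The percentile was 76.2 ± 13.5 (SD, n = 4) on NCD and 0 in all 4 mice on HFD, with an exact permutation p of 0.0286 and an adjusted p of 0.919. At this unadjusted p 2.58% of promoters were lower on HFD. The median H3K27ac difference over all promoters tested, HFD minus NCD, was -19.6 percentile points, in the same direction as at Lep. Lep was 1 of 11 promoters with H3K27ac in all NCD and no HFD mice, or 0.101% of the 10887 promoters with a peak. Leaving out a mouse gave 11 to 97 such promoters, the most without mouse 11, and 43, 34, 30 and 17 without mice 1, 4, 8 and 7. It was the only gene with this pattern for both marks. The H3K27ac pattern rested on weak peaks in mice 1 and 4, whose -log10 q was 3.54 and 4.87. When only peaks whose -log10 q reached 5 were kept, H3K27ac was no longer present in all NCD mice, whereas H3K4me3, with -log10 q of 30.5 to 145 in the 4 mice, still was.

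Among the 26 promoters with H3K4me3 in all NCD and no HFD mice, Lep had the highest median percentile on NCD, 55.3, and Ifi44l followed at 43.1. The 3 genes whose H3K4me3 and H3K27ac percentiles were nearest to those of Lep across the 8 mice were Hspb2 and Cryab, a pair of small heat shock protein genes that share a promoter, at a mean absolute difference of 9.76, and Rarres2, which encodes the adipokine chemerin, at 11.1. Rarres2 had H3K4me3 in 4 NCD mice and 1 HFD mouse, and H3K27ac likewise. limma, fitted to quantile-normalised log2 fold over all promoters with absent peaks set to 0, gave a Lep H3K4me3 difference of -2.37 ± 0.540 (SE) for HFD against NCD, with an adjusted p of 0.254. For H3K27ac the limma difference was -1.19 ± 0.431 (SE), with an adjusted p of 0.864.

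The absence of Lep on HFD was set against detection in the same lists. Of the 200 promoters nearest to Lep in median H3K4me3 percentile on NCD and present in the same 4 mice, all had a peak in the lists of mice 8 and 11, 95.5% in that of mouse 10 and 44.5% in that of mouse 7. None of the 200 was missing from all 4 HFD lists. For H3K27ac the shares were 95.0% and 99.0% for mice 8 and 11 but 44.0% and 3.0% for mice 10 and 7, and 0.5% were missing from all 4. The lists of mice 7 and 10 thus held fewer promoters of like rank than those of mice 8 and 11. Without mice 7 and 10, an alternative chosen after the data were seen, Lep kept the same difference for both marks, since every HFD mouse stood at 0. The exact permutation p was 0.0667, which no comparison of 4 with 2 mice can go below. In this setting 29 H3K4me3 and 63 H3K27ac promoters were all or none by diet.

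**Figure D2:**
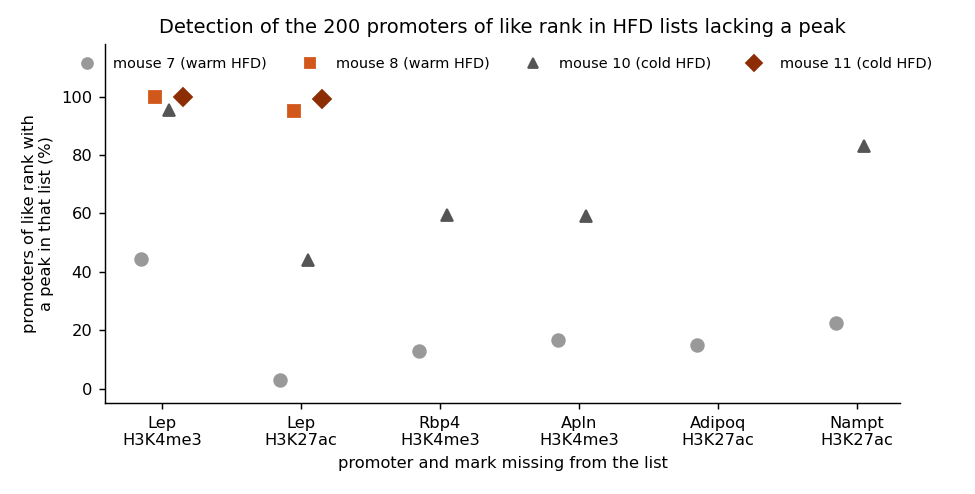
Percentage of the 200 promoters of like rank that had a peak in an HFD list lacking the peak named below, for each promoter and mark. Each symbol is an HFD mouse. For Lep H3K4me3 mice 8 and 11 stand at 100% and mouse 7 at 44.5%, whereas the lists that lacked Rbp4 and Apln H3K4me3 held 13.0 to 59.5% of promoters of like rank.

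Markers of other tissues or cell types were counted beside Lep. Of 7 skeletal muscle marker promoters, 3 (Acta1, Pygm and Jph2) had H3K4me3 in each NCD mouse and 0 in each HFD mouse, and Ckm, Myh4, Tnnt3 and Myod1 had none in any list. Of 6 markers associated with white adipocytes, 1 to 3 had H3K4me3 in an NCD mouse and 0 to 1 in an HFD mouse, with Hoxc8 in 4 NCD and 2 HFD mice, Nnat in 3 and 0, and Hoxc9 in 2 and 0. Hoxc10, Tcf21 and Agt had none in any list. The muscle genes were known from earlier results of these data, and the part of either tissue in the Lep result was not tested. In whole tissue, fewer cells carrying a mark and less of the mark per cell cannot be told apart.

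Away from its promoter, Lep was not without marks on HFD. Of the 11 H3K27ac regions in the Lep window, 10 were distal. A region from 29031406 to 29033490, centred at -27.9 kb from the start, had a peak in 7 mice, at folds of 5.13, 4.61, 7.66 and 14.8 in mice 1, 2, 4 and 5 and 5.68, 5.22 and 6.58 in mice 8, 10 and 11. The diets overlapped at this region, and it was missing from mouse 7, whose list held 5.0% of regions of like rank. A second region, at -16.2 kb (29043256 to 29045002), had folds of 5.38, 10.7, 11.4 and 12.3 in the NCD mice and 2.88 and 5.92 in mice 8 and 11. It was absent in mice 7 and 10, whose lists held 9.5% and 65.5% of regions of like rank.

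Downstream of the start, 1 HFD mouse at most had H3K27ac in the regions shared by 3 NCD mice. A region at 13.2 kb, from 29073087 to 29073698 over the third and last exon, had H3K27ac at folds of 5.23, 5.95 and 9.95 in mice 2, 4 and 5 and no peak in an HFD mouse. Mice 8 and 11 lacked it although their lists held 90.5% and 97.5% of regions of like rank, and mouse 1 lacked it with 55.5%. A region at 28.0 kb, from 29087265 to 29089441, had folds of 7.82, 3.03 and 14.3 in mice 2, 4 and 5 and 3.57 in mouse 8. Among the mice that lacked it, the list of mouse 11 held 91.5% of regions of like rank and that of mouse 10 31.0%. H3K4me1 lay within the latter in mice 2, 4, 5 and 8. Nothing but a peak of H3K4me1 in mouse 8, at a fold of 2.83 and 926 bp after the start, was called at the Lep promoter on HFD. Per 10000 peaks of the list, H3K27ac peaks more than 1000 bp from any start numbered 1.94 ± 0.913 (SD, n = 4) on NCD and 1.02 ± 0.689 on HFD, an overlap between diets with an exact permutation p of 0.143.

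**Figure D3:**
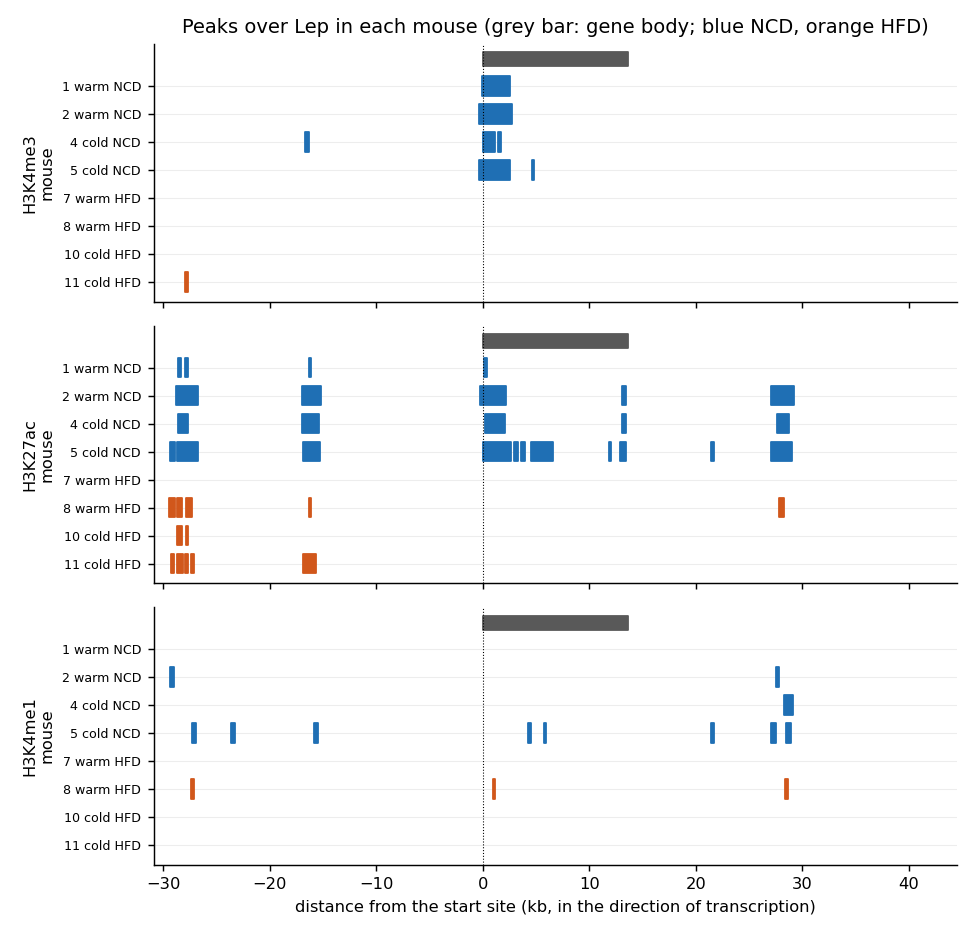
Peaks of H3K4me3, H3K27ac and H3K4me1 around Lep in each mouse, by distance from the start site in kb. Blue bars are NCD and orange bars HFD mice, and the grey bar is the gene body. H3K4me3 at the start is confined to the 4 NCD mice, whereas H3K27ac near -28 kb is present in 7 mice.

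Adipoq (ENSMUSG00000022878.5) lies on chromosome 16, bases 23146536 to 23158028 on the plus strand. H3K4me3 was present at its promoter in all 8 mice, at folds of 23.8, 23.2, 10.8 and 13.2 in mice 1, 2, 4 and 5 and 11.1, 15.7, 10.5 and 26.1 in mice 7, 8, 10 and 11. The folds overlapped between diets. The percentiles did not: they were 63.3, 59.6, 53.6 and 42.7 on NCD and 95.0, 79.1, 72.0 and 68.9 on HFD, so that Adipoq stood higher among the promoters of each HFD library. The difference was 24.0 percentile points, from 54.8 ± 9.02 (SD, n = 4) to 78.8 ± 11.6, with an exact permutation p of 0.0286 and an adjusted p of 0.823. Of all promoters tested, 1.26% had a higher percentile on HFD at this unadjusted p, and the median difference over all promoters was -4.47. limma gave a difference of 1.32 ± 0.401 (SE) on the log2 scale, with an adjusted p of 0.618.

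The highest percentile was that of mouse 7, whose list was the shortest, and the part of list length in the difference was not tested. Without mice 7 and 10 the Adipoq difference was 19.3 points, with an exact permutation p of 0.133. Ranked by -log10 p it was 20.9, and ranked among all peaks of a list 25.8. By temperature, warm mice stood at 74.3 ± 16.2 (SD, n = 4) and cold mice at 59.3 ± 13.7, with overlap and an exact permutation p of 0.229. H3K27ac at the Adipoq promoter had folds of 6.48, 16.3, 11.2 and 15.3 on NCD and 8.82, 4.85 and 10.9 in mice 8, 10 and 11. It was absent within 1000 bp of the start in mouse 7, whose list held 15.0% of promoters of like rank, although a peak with a fold of 4.44 lay farther upstream in that mouse, so that the region joined over mice was present in all 8. The percentiles of the 7 mice with a peak were 79.6 to 95.5, and the diets overlapped, with an exact permutation p of 0.371.

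**Figure D4:**
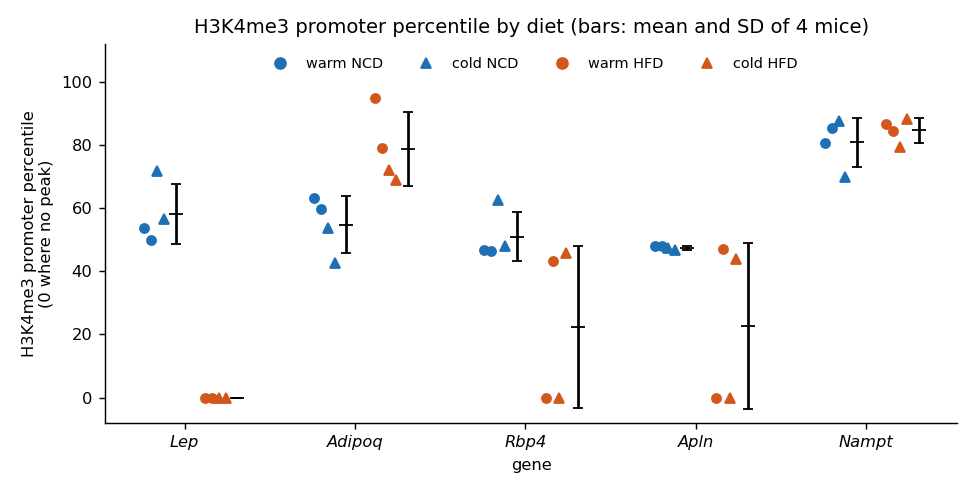
Percentile of the promoter H3K4me3 fold among all protein-coding promoters of the library, for the 5 members with a peak, by diet. Points are mice, circles warm and triangles cold, and bars give the mean and SD of 4 mice. Adipoq is higher in all 4 HFD mice than in all 4 NCD mice, Lep is at 0 on HFD, and Nampt overlaps between diets.

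Around Adipoq the H3K27ac peaks of the mice joined into a region from 23143809 to 23150597 over the first exon and the first intron, of which 228 bp were covered in mouse 7, 2256 bp in mouse 10 and 3632 to 6653 bp in the other mice. A distal region at 18.5 kb, beyond the end of the gene (23163787 to 23168230), had folds of 4.89, 8.10 and 7.54 in mice 2, 4 and 5 and 6.50, 6.93 and 10.5 in mice 8, 10 and 11. It was absent in mouse 7, whose list held 8.5% of regions of like rank, and in mouse 1, with 86.0%. H3K4me3 was called inside it, at 18.4 kb, in mice 4, 8 and 11. H3K27ac peaks more than 1000 bp from any start numbered 1.17 ± 0.852 per 10000 (SD, n = 4) on NCD and 2.29 ± 0.826 on HFD, with overlap and an exact permutation p of 0.143. This number depends on how the peak over the promoter was split, since all such peaks of mice 1 and 7 were pieces of the promoter region, whereas mouse 2, with an unbroken peak there, counted 1. Over all genes 0.651% were higher and 1.74% lower on HFD at an unadjusted p within 0.05.

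Retn (ENSMUSG00000012705.16) encodes resistin, a hormone of white adipocytes in the mouse. It lies on chromosome 8, bases 3655770 to 3660110 on the plus strand. Neither H3K4me3 nor H3K27ac was called at its promoter in any mouse. The mark found there was H3K4me1, in mice 2, 4 and 5 at folds of 5.74, 4.57 and 5.16, in 3 NCD and 0 HFD mice. An exact Fisher test gave p = 0.143, and 2 of the 4 HFD lists of this mark held only 12 and 18 peaks. Of all 4920 promoters with H3K4me1, 0.061% were marked in all NCD and no HFD mice, and 0 of the 7 members were.

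H3K27ac was found upstream of Retn on both diets. The region lay from 3645992 to 3648406, at -8.98 kb, with folds of 11.1, 19.6, 14.9 and 21.2 in mice 1, 2, 4 and 5 and 9.79, 8.28 and 14.1 in mice 8, 10 and 11. The diets overlapped, and its median percentile among all H3K27ac regions was 96.8 in the 7 mice that had it. Mouse 7 lacked it, where 61.0% of regions of like rank were called. H3K4me1 was called inside the region in mice 2, 4 and 8. The neighbours of Retn were marked throughout: the starts of Stxbp2, of Fcor with Gm39121, and of Trappc5 with Gm45231 had H3K4me3 in all 8 mice, at folds of up to 68.8, 62.2 and 133. The start of Retn itself lacked H3K4me3 in the same libraries, an absence that could not be set against promoters of like rank.

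Cfd (ENSMUSG00000061780.6), on chromosome 10 at 79890853 to 79892655 on the plus strand, encodes complement factor D, also called adipsin, a serine protease of the alternative complement pathway. As at Retn, no H3K4me3 or H3K27ac peak was called at its promoter in any mouse, and H3K4me1 was called in mouse 5 alone, at a fold of 4.09. The start of Med16, 18.0 kb away, had H3K4me3 in 7 mice at folds of 10.7 to 84.4, all but mouse 7, whose list held 89.5% of regions of like rank. The shared start of R3hdm4 and Kiss1r had it in all 8 mice, at 3.75 to 103. Upstream H3K27ac, at -6.545 kb, was called in mice 4, 5 and 8 at folds of 4.11, 6.26 and 3.47, and mouse 11 had a separate peak nearer to the start, at a fold of 4.28. Of the lists without the former region, that of mouse 11 held 91.5% of regions of like rank, that of mouse 2 79.5% and that of mouse 7 0.5%. The only H3K27me3 region in the windows of the 7 members lay 30.0 kb from the start of Cfd and was called in mouse 5, which had the longest list of that mark.

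Rbp4 (ENSMUSG00000024990.13) encodes the plasma carrier of retinol. It lies on chromosome 19, bases 38116629 to 38125281 on the minus strand, and has 2 annotated starts, at 38124828 and 38125248. The H3K4me3 region spanned both, from 38123738 to 38125378, at folds of 9.38, 9.47, 14.8 and 25.4 on NCD and 3.83 and 9.28 in mice 8 and 11. The percentile was 51.0 ± 7.81 (SD, n = 4) on NCD and 22.3 ± 25.7 on HFD, where mice 7 and 10 had no peak. The percentiles did not overlap between diets, with an exact permutation p of 0.0286 and an adjusted p of 0.823, and 2.21% of all promoters were lower on HFD at this unadjusted p. The lists of mice 7 and 10 held 13.0% and 59.5% of promoters of like rank, and 80 of the 200 were missing from both. Without mice 7 and 10 the difference was -6.47 points in place of -28.7.

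H3K27ac at the Rbp4 promoter was called in mouse 2 alone, at a fold of 5.32. Farther downstream, by contrast, H3K27ac was found in all 8 mice, from 38085490 to 38090964 at 36.7 kb, with folds of 11.7, 16.2, 13.6 and 10.4 on NCD and 7.35, 11.3, 9.26 and 22.2 on HFD. Seen from Rbp4, this region lies on the far side of Ffar4, which encodes a receptor for long-chain fatty acids and whose start had H3K4me3 in all 8 mice at folds of 9.13 to 68.8. Beside the Ffar4 start, at 28.8 kb from that of Rbp4, a further H3K4me3 region (38096052 to 38096714) was called in mice 8, 10 and 11 at folds of 2.95, 5.76 and 9.25 and in 0 NCD mice. It was picked out after its values were seen. The NCD lists held 94.0 to 98.0% of regions of like rank, and mouse 7, which also lacked it, held 18.5%. H3K27ac was called over the same stretch in 7 mice, NCD mice 2, 4 and 5 among them.

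Apln (ENSMUSG00000037010.7) encodes apelin, a peptide ligand of the receptor Aplnr that acts on vessels and heart. It lies on chromosome X, bases 48025146 to 48034853 on the minus strand. H3K4me3 at its promoter had folds of 10.3, 10.9, 7.91 and 22.1 on NCD and 5.55 and 7.56 in mice 8 and 11, with no peak in mice 7 and 10. The 4 NCD percentiles lay within 46.6 to 47.9 and those of mice 8 and 11 were 46.9 and 43.8, so the diets overlapped. The mean difference was -24.8 points, with an exact permutation p of 0.0571, and -2.14 points without mice 7 and 10. Promoters of like rank were called in 16.5% of cases in mouse 7 and 59.0% in mouse 10, and 39.5% were missing from both.

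No H3K27ac was called at the Apln promoter in any mouse. A distal H3K4me3 region at -19.7 kb, from 48054062 to 48055104, was called in 7 mice, at folds of 7.37, 8.07, 17.5 and 17.9 on NCD and 4.62, 6.00 and 7.21 in mice 8, 10 and 11. H3K27ac lay at the same place, at -19.5 kb, in mice 2 and 4. The H3K4me3 folds did not overlap between diets, nor did they at the starts of Stxbp2, Fcor and Trappc5 in the Retn window. These starts had 26.4 to 68.8, 33.6 to 62.2 and 40.3 to 133 on NCD. On HFD they had 6.20 to 20.3, 7.98 to 26.0 and 4.89 to 35.1. The folds did overlap at the starts of Rfc4, Plppr3, Med16, R3hdm4 and Ffar4. The share of all regions with such a division was not counted, and the difference at the distal Apln region was not tested. Mouse 7 lacked the region, and 19.0% of regions of like rank were called in its list.

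Nampt (ENSMUSG00000020572.8) encodes nicotinamide phosphoribosyltransferase, the rate-limiting enzyme of NAD salvage, which is also secreted. It lies on chromosome 12, bases 32819545 to 32853349 on the plus strand, and its transcript in the basic annotation starts at 32820335. Its promoter had the highest H3K4me3 of the 7 members in 7 of the 8 mice, all but mouse 7, with folds of 33.0, 40.3, 35.2 and 72.8 in mice 1, 2, 4 and 5 and 7.43, 17.4, 13.5 and 36.7 in mice 7, 8, 10 and 11. The percentile was 80.8 ± 7.89 (SD, n = 4) on NCD and 84.7 ± 3.94 on HFD, with overlap and an exact permutation p of 0.514. The start of Gdap10 lies in the same region, and the peak cannot be divided between the genes.

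H3K27ac at the Nampt promoter had folds of 10.9, 16.4, 6.36 and 13.4 on NCD and 9.04 and 13.2 in mice 8 and 11. It was absent in mouse 7, where 22.5% of promoters of like rank were called, and in mouse 10, where 83.0% were. The peaks lay on both sides of the start, in regions at -0.491 and 0.730 kb. Of 9 distal H3K27ac regions at Nampt, 2 were found in 7 mice: at 14.8 kb over exon 4, with folds of 5.13 to 8.10 on NCD and 4.73 to 9.94 in mice 8, 10 and 11, and at 36.6 kb beyond the gene, with 4.87 to 16.5 and 5.17 to 9.87. The diets overlapped at both, and mouse 7, which lacked them, held 5.0% and 4.5% of regions of like rank. H3K4me1 coincided with the region at 36.6 kb in mice 2, 4, 5 and 11.

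**Figure D5:**
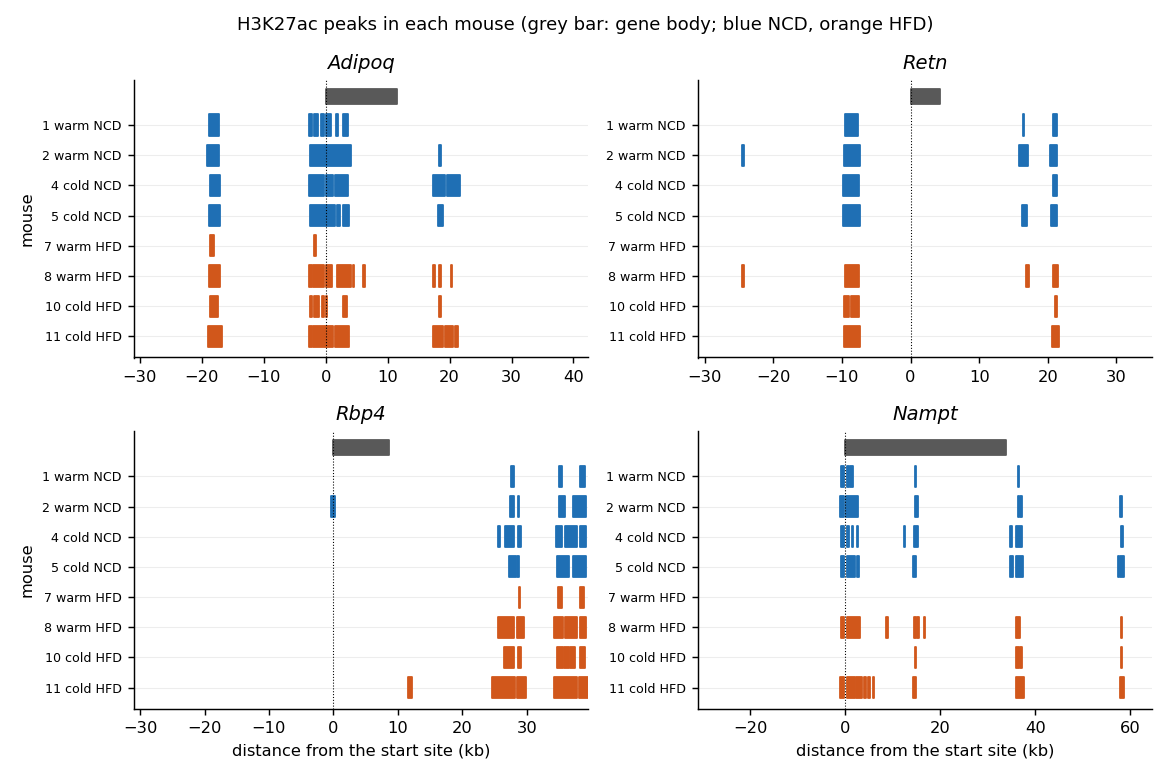
H3K27ac peaks around Adipoq, Retn, Rbp4 and Nampt in each mouse, by distance from the start site in kb in the direction of transcription. Blue bars are NCD and orange bars HFD mice, and the grey bar is the gene body. The upstream Retn region is present in 7 mice although the start of the gene has no peak, and mouse 7 has few peaks in all 4 windows.

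By temperature no member was divided between all mice of a group and none of the other. Of the members, 0 were marked with H3K4me3 in all cold and no warm mice, as were 0.0351% of all promoters, and 0 in the opposite direction, against 0.00703%. For H3K27ac the counts were likewise 0 members, against 0.119% and 0.0% of promoters. By presence or by percentile, 0 members passed an unadjusted p of 0.05 by temperature, the smallest exact permutation p being 0.229 for Adipoq H3K4me3. Over all promoters 0.0422% passed by presence of H3K4me3, and by percentile 2.02% were higher and 0.998% lower in cold mice for H3K4me3, and 2.04% and 0.129% for H3K27ac. For Lep, H3K4me3 percentiles were 53.8 and 50.0 in warm and 71.8 and 56.7 in cold NCD mice, and the HFD mice at either temperature had 0. The interaction of temperature and diet, the cold effect on NCD minus that on HFD, had an exact permutation p of 0.486 or more for each member tested, and 2.0% of all promoters for H3K4me3 and 1.56% for H3K27ac had one within 0.05. By diet, 0 members were higher on HFD for H3K27ac, as were 0.303% of promoters at this unadjusted p, and 0 were lower for H3K4me1, against 0.203%.

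Over all promoters, 0 passed the adjusted threshold of 0.05 by the exact permutation test for any mark and factor. The smallest unadjusted p of this test was 0.0286 for H3K4me3 and H3K27ac and 0.143 for H3K27me3. From such values adjustment could hardly leave any promoter, so the counts of 0 after adjustment say little. Unadjusted, 494 of 14232 H3K4me3 promoters passed by diet, 430 by temperature and 284 for the interaction, and 314, 236 and 170 of 10887 H3K27ac promoters. For H3K4me1 the counts were 10, 0 and 0 of 4920, and for H3K27me3 0 in each of 1511. limma called 7 H3K27ac promoters by diet and 1 by temperature, none of them a member, and 0 for the other marks. For distal H3K27ac peaks 0 of 11669 genes passed after adjustment, with 279 by diet and 409 by temperature unadjusted, and none of the 7 members was among them.

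A list of 25 other adipokine genes was compared. Over all 21951 promoters, 43.3% had H3K4me3 in all 8 mice and 35.2% in none, and 3.74% had H3K27ac in all 8. Of these, 3 had H3K4me3 in all 8 mice: Angptl4, an inhibitor of lipoprotein lipase, Metrnl and Nrg4, which brown fat secretes. Another 8 had H3K4me3 in none, among them Agt, Ccl2, Lcn2, Serpina12 and the resistin-like genes Retnla and Retnlb. H3K27ac was present in all 8 mice at Angptl4 and Nrg4. Of the 25 genes, 0 were marked in all mice of one diet or temperature and none of the other, for any mark. In the NCD direction 0.183% of tested promoters were so divided for H3K4me3 and 0.101% for H3K27ac. At such shares 0 of 25 genes says little.

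Receptors and pathway partners of the members were counted in the same way, beside the same shares over all promoters. Of 13 such genes, 5 had H3K4me3 in all 8 mice: the adiponectin receptors Adipor1 and Adipor2, the candidate resistin receptors Cap1 and Tlr4, and C3, which is in the same pathway as Cfd. Aplnr, the apelin receptor, had it in 4 NCD and 2 HFD mice, as had Apln, Rbp4, Dpp4 and Hoxc8. Apln and Rbp4 lacked it in mice 7 and 10, whose H3K4me3 lists were the shortest. Lepr, the leptin receptor, had it in 1 NCD mouse, and Stra6, the receptor of Rbp4, in none. Of 9 transcription factors that act on adipokine genes, 9 had H3K4me3 in all 8 mice and 3 had H3K27ac in all 8. They include Pparg, the main regulator of adipocyte differentiation, and Cebpa, a C/EBP factor. Of the 13 genes and of the 9, 0 were marked in all mice of one diet and none of the other. With 0.183% of tested promoters so divided for H3K4me3 and 0.101% for H3K27ac, this too says little.

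Patterns across the mice differed among the members themselves. By H3K4me3 and H3K27ac percentiles the genes nearest to Adipoq were Adamts6, Sec14l1 and Palm2, at mean absolute differences of 5.41 to 5.84, and those nearest to Nampt were Sertad2, Pip4k2b and Nsun2, at 3.17 to 3.90. Nfatc4, Rap1gap and Mmp14 were nearest to Rbp4, at 1.74 to 2.32. Gm17402 and Mlf1, which share a promoter, and Prr16 were nearest to Apln, at 0.401 to 0.477. Retn and Cfd were at 0 for both marks in all 8 mice, as were 7568 genes, and no nearest gene was named for them.

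In all, the windows of the 7 members held 115 regions, of which 43 were of H3K27ac, 43 of H3K4me1, 28 of H3K4me3 and 1 of H3K27me3. Lep and Nampt had the most, with 26 and 27, and Apln the fewest, with 4. Distal regions were seldom shared: 15 of 28 distal H3K27ac regions and 24 of 34 distal H3K4me1 regions were called in 1 mouse only. Of the distal H3K27ac regions 8 were found in 4 or more mice, and in these windows no distal region of H3K27ac or H3K4me3 was found in all mice of one diet and none of the other, a pattern shown by 0.0883% and 0.598% of all regions of these marks in the NCD direction.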

How the data were processed

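Chromatin of iBAT from 8 mice was immunoprecipitated for 4 marks, with an input per mouse. Per the labels and the study's methods, the authors trimmed reads with cutadapt, aligned them to GRCm38 with Bowtie2 and called peaks per library with MACS2 against the input. The submitters' processing notes also name deepTools, and no version is given in the sources used here. The deposited lists hold, at each summit, the fold enrichment over the local background, a ratio, and the -log10 p and -log10 q values. The deposited score column, a rescaled -log10 q, and the summit offset, in bases, are the other fields, and the score was not used. The smallest -log10 q was 1.30, so a mark is absent where no peak reached the lists. Reads and library depths were not analysed here. Background pileup was recovered from the fold and p of each peak.

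The mouse was the replicate, although the methods can also be read as pooling tissue of more than 1 mouse. Start sites came from GENCODE M21 basic. Peaks overlapping by 1 bp were joined into regions. Ranks and presence were compared by exact permutation and exact Fisher tests, two-sided, over all promoters with a peak in at least 1 mouse, with Benjamini-Hochberg adjustment, and limma was fitted to quantile-normalised log2 fold. The permutation, Fisher and limma tests by diet were tried on simulated data built from the H3K4me3 promoters. The other statistics were not tried on simulated data. The 7 members, the lists and the markers were chosen with earlier results of these data known. Named beside the members were the 3 genes nearest to each in percentile, genes starting in a member window, and genes of the lists. Alternatives were the promoter window, the flank, the -log10 q minimum, other ranks, limma and leaving out mice. Python 3.11.15, numpy 2.4.6, pandas 2.3.3, scipy 1.17.1, matplotlib 3.10.9, R 4.3.3 and limma 3.58.1 were used.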

Additional observations from a re-analysis of the deposited data

Results flagged for a closer look

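Within each diet and each temperature, the values of 4 mice were searched for a mouse that stood apart by Dixon's criterion. Of 68 groups 27 held such a mouse. In 12 of these 27 groups 1 mouse had a peak and the others had none. The nominal rate of the criterion, about 1 in 20, is not a chance rate for these values. Absent peaks share a fixed value that lies well apart from the percentiles of called peaks. A group with 1 marked mouse, or with 1 unmarked mouse, was therefore readily flagged. Each mouse also entered a diet group and a temperature group, so the groups were not independent. The count of 27 was not compared with chance. None of the members had an interaction of diet and temperature past the threshold.

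Mouse 7 stood at a percentile of 0 among the warm mice for Rbp4 H3K4me3 (others 43.2 to 46.8), Apln H3K4me3 (46.9 to 47.9), Adipoq H3K27ac (79.6 to 92.8) and Nampt H3K27ac (91.2 to 93.4), and among the HFD mice for Adipoq H3K27ac (86.3 to 90.7). Mouse 10 stood at 0 among the cold mice for Apln H3K4me3 (43.8 to 47.5) and Nampt H3K27ac (87.5 to 92.9). These mice had the shortest H3K4me3 and H3K27ac lists, and the part of list length in these values was not tested. Mouse 4 stood at 62.6 for Rbp4 H3K4me3 on NCD, where the others had 46.5 to 47.9. Mouse 2 stood at 60.9 for Rbp4 H3K27ac, with no peak in the other NCD or warm mice.

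For H3K4me1, a mouse with a peak among mice without it was mouse 8 at Lep, at a percentile of 93.7, mouse 11 at Adipoq, at 99.0, mouse 5 at Cfd, at 87.8, and mouse 2 at Retn among the warm mice, at 97.3. Since 77.6% of promoters had no H3K4me1 in any mouse, even a weak peak has a high percentile. The Lep peak had a fold of 2.83 and a -log10 q of 1.32, and the lowest -log10 q in that list was also 1.32. Mouse 1 had 0 at Retn on NCD, where the others had 93.8 to 97.3.

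For H3K27ac peaks more than 1000 bp from any start, per 10000 of the list, mouse 7 had 0 at Lep among HFD mice (others 1.23 to 1.48) and 6.20 at Rbp4 among warm mice (0.703 to 1.18), from 2 peaks. Mouse 5 had 3.28 at Lep among cold mice, where the others had 1.23 to 1.38. Mouse 10 had 2.76 at Adipoq (0.982 to 1.23) and 1.38 at Retn (0.246 to 0.328) among cold mice. The Retn value came from 2 peaks inside the region at -8.98 kb, where each other cold mouse had 1 peak. Mouse 1 had 0.592 at Retn among NCD mice (0.327 to 0.352). Each NCD mouse had 1 such peak there, and the list of mouse 1 was shorter, at 16889 peaks against 28433 to 30544. A peak was found in 1 mouse of the group at Cfd in mouse 8, at 0.296, and at Apln in mouse 2, at 0.352, and mouse 4, at 0.327.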

How the results depend on the processing

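Over 74 results 848 values were recomputed, of which 771 were classed as the same, 45 as moved and 32 as reversed, 26 of the latter by temperature. A tested difference was the same when it kept its direction and adjusted call. Counts were the same when they changed little, and shares of like rank when they stayed within a binomial interval of the main share. The 771 include counts of promoters past the adjusted threshold by exact tests. With a smallest exact permutation p of 0.0286, such counts could hardly leave 0 and the adjusted call of a member could hardly change. The sameness of either says little. Lep was lower on HFD in 28 of 28 alternatives over both marks. With no Lep promoter peak on HFD and absence set to 0, a percentile could give no other direction. Adipoq H3K4me3 was higher on HFD in 14 of 14. With a -log10 q of at least 5 the members with H3K27ac in all NCD and no HFD mice fell from 1 to 0, and regions numbered 26 for H3K27ac, 11 for H3K4me1 and 0 for H3K27me3. With 10 kb flanks the windows held 27 H3K27ac, 26 H3K4me1, 10 H3K4me3 and 0 H3K27me3 regions. limma called 7 H3K27ac promoters by diet and 1 by temperature against 0. Leaving out a mouse, members all or none by diet for H3K4me1 ranged from 0 to 1 (Retn without mouse 1). Over all promoters this H3K4me1 count ranged from 3 to 237, so that Retn was not singled out. Without mouse 11, 258 H3K4me3 and 97 H3K27ac promoters were all or none by diet.

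Reversed differences were Nampt H3K4me3 by diet within the list (-0.787) and by temperature ranked by -log10 p (0.987), Apln H3K4me3 by temperature within the list (2.75), Rbp4 H3K27ac by diet in limma (0.16), and Nampt H3K27ac by diet without mice 7 and 10 (1.58), chosen after the data were seen. For distal peaks they were Nampt by diet (0.120) and Adipoq by temperature (0.483) with the -log10 q minimum, Rbp4 by temperature with 10 kb flanks (0.0616), and Rbp4 (1.0) and Adipoq (0.5) by temperature as numbers of peaks. Leaving out a mouse, temperature differences spanned 0 for H3K4me3 at Lep (-7.06 to 16.9), Apln (-13.1 to 10.3), Rbp4 (-6.42 to 18.0) and Nampt (-5.42 to 0.774), for H3K27ac at Lep (-6.97 to 24.0) and Nampt (-25.4 to 20.1) and for distal peaks at Rbp4 (-1.39 to 0.440), as did Nampt distal peaks by diet (-0.311 to 0.378). The cause was not tested. No paired analysis was possible because no mouse number is shared between conditions. Absence in mice 7 and 10 is given beside their short lists, and 4 against 4 mice cannot give an exact p under 0.0286.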
